A study of Mus musculus with 18 samples.

Results

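The erythropoietin receptor pathway was followed through 10 of its genes in a mouse red cell precursor line that resumed maturation after Gata-1 was switched on. The genes were Epor, Jak2, Stat5a, Stat5b, Pim1, Cish, Socs2, Socs3, Ptpn6 and Akt1, taken by symbol. The list was chosen with earlier results of these data known, so it was not blind to the measured values. All 10 were on the array, and 14 of the 12422 probe sets tested carried one of these symbols alone, so Jak2, Stat5a, Pim1 and Socs3 had more than 1 probe set each. The cells were G1E cells, which were made from embryonic stem cells with a disrupted Gata-1 gene and are committed to the red cell lineage. Every array, 0 h included, held RNA of the ER4 subclone, which lacks functional endogenous Gata-1 and carries Gata-1-ER, a fusion of Gata-1 with the ligand binding domain of the estradiol receptor. Estradiol activates the fusion, and total RNA was taken at 0, 3, 7, 14, 21 and 30 h after its addition and measured on Affymetrix MG-U74Av2 arrays, with 3 biological replicates (A, B and C) at each time and 18 arrays in all. The labels do not give the cytokines in the culture medium, so the supply of erythropoietin to these cells was not known here. ER4 is 1 clone, and among the 18 arrays none was of cells without the fusion and none was of untreated cells at a later time, so the activity of Gata-1-ER, other effects of estradiol and time in culture cannot be told apart.

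Erythropoietin is the hormone that keeps red cell precursors alive and dividing. It binds Epor, a receptor with no kinase of its own, and the kinase Jak2, which is attached to the receptor's inner part, phosphorylates the receptor and the transcription factors Stat5a and Stat5b. Phosphorylated Stat5 dimers enter the nucleus and switch on genes that include the kinase gene Pim1 and the feedback inhibitors Cish, Socs2 and Socs3. Cish and the Socs proteins bind phosphorylated receptors or kinases and damp the signal, and Ptpn6 (Shp-1) is a phosphatase that docks on the receptor and dephosphorylates Jak2. Akt1 is a kinase on the phosphoinositide 3-kinase branch that runs from the same receptor. The arrays measured RNA and not phosphorylation, so they report on the supply of the pathway's parts and on its target genes, not on the state of the receptor.

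The pathway genes did not move as one block. At 3 h Epor, Pim1 and Cish were lower than at 0 h, and at 7 h Epor and Pim1 were higher than at 3 h. After that Pim1 and Cish climbed to 2.82 and 2.71 times their 0 h level at 30 h, Socs2, Akt1 and Ptpn6 fell, and Epor was not called different from 0 h. Stat5b was higher at 21 h and 30 h, while Jak2, Socs3 and the brighter Stat5a probe set passed the test at no time. Signals are given as deposited, on a scale that gave every array a mean of 150.1 after trimming 2% of each end, with array medians of 38.2 to 50.9. A change is a difference of log2(signal + 16) after quantile normalization, so that changes and ratios of dim probe sets are understated, and it was called where the adjusted p of limma, a linear model with 1 mean per time over all 18 arrays and Benjamini-Hochberg adjustment over 12422 probe sets, was below 0.05. Ratios between times were taken from these changes. Such ratios can differ from those of the printed signals, in bright probe sets too. Because the comparisons with 0 h share the same 3 arrays, and those of neighbouring times share arrays too, they are not independent of each other. In bulk RNA, fewer cells of a type and less RNA per cell cannot be told apart.

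**Figure D1:**
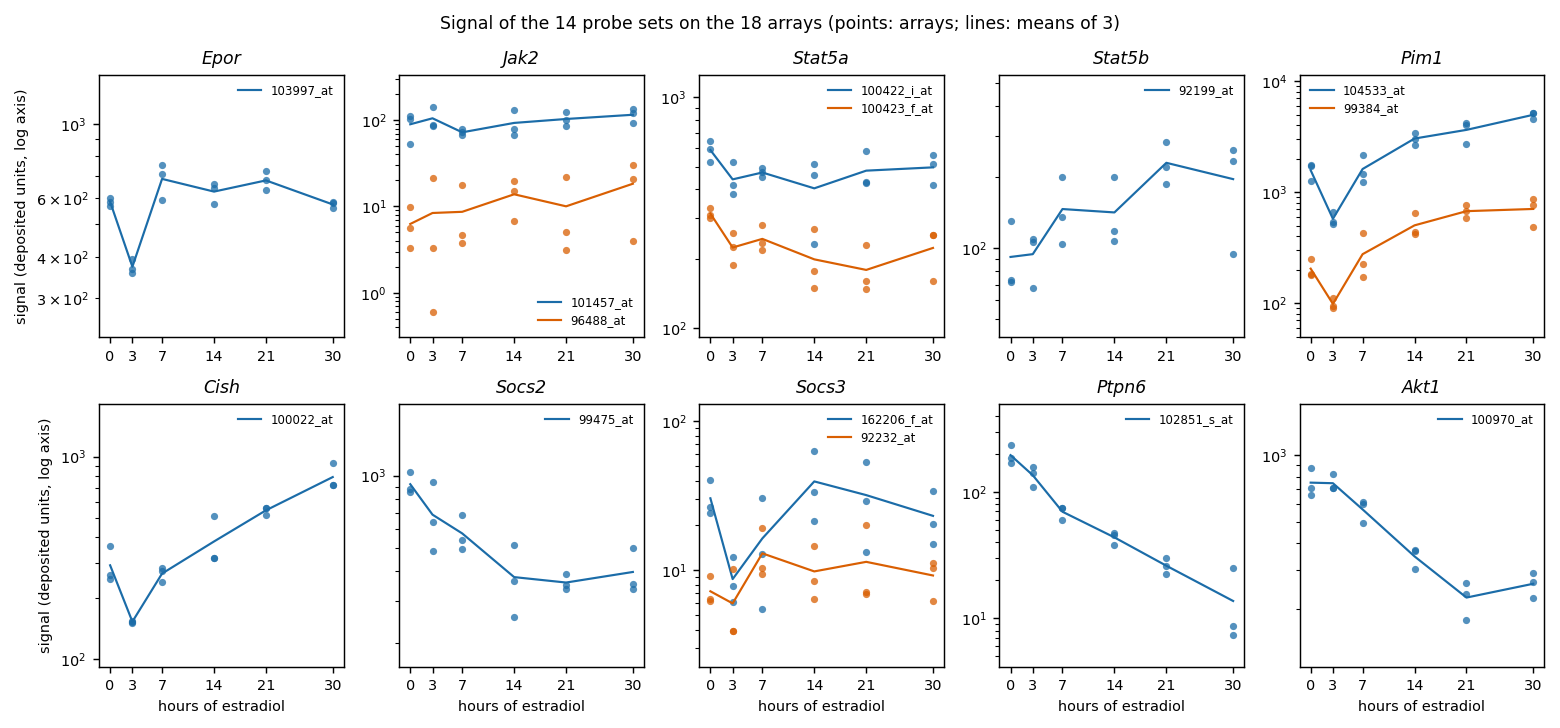
Signal of the 14 member probe sets (vertical axis, deposited units, log scale with a range of its own in each panel) against hours of estradiol, 1 panel per gene, with 1 point per array and a line through the mean of the 3 arrays at each time; a second color marks a second probe set of the gene. Epor, Pim1 and Cish have their lowest means at 3 h, Pim1 and Cish end at their highest and Ptpn6 at its lowest, and the points of Jak2 and Socs3 overlap over most times.

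The start regions of the 3 genes that were lower at 3 h are printed here because they are the stretches nearest to the genes in which motifs of Gata-1 and Stat5 can be looked for. Each runs from 250 bases before to 50 bases after the annotated transcript start, read 5′ to 3′ on the gene's strand from RefSeq on build GRCm38.p6. The Epor window lies at chr9:21963527-21963826 on the minus strand, the Cish window at chr9:107296409-107296708 on the plus strand, and the first of 2 Pim1 windows at chr17:29490535-29490834 on the plus strand. Capitals mark matches to a GATA factor motif (AGATAA, or AGATAG with G last, or TGATAA with T first, or TGATAG with both) or to the Stat motif TTCNNNGAA, both searched on both strands.
Epor: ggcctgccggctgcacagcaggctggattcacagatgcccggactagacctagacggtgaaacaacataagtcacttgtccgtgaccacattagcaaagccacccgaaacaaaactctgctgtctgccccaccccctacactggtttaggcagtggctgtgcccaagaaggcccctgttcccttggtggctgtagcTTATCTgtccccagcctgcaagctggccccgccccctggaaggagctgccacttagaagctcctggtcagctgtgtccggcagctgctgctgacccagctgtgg
Cish: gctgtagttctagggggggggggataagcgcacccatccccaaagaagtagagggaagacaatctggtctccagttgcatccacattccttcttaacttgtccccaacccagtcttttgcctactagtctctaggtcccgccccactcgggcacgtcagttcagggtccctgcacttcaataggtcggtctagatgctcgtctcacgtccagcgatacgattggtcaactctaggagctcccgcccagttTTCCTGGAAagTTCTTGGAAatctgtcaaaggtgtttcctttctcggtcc
Pim1: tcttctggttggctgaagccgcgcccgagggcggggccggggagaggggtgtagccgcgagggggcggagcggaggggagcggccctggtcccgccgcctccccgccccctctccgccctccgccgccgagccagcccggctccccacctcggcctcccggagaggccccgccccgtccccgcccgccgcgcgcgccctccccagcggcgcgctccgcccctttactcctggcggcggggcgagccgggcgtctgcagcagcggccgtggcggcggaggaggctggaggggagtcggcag
The Epor window held 1 GATA match, read as TTATCT on the strand shown, 54 to 49 bases before the start, and no Stat match. The Cish window held a pair of Stat matches, TTCCTGGAA at bases 1 to 9 and TTCTTGGAA at bases 12 to 20 of the transcript, and no GATA match. The Pim1 window, 81.3% G and C, held neither. Of the 32851 such windows of 27025 genes in the RefSeq table, 29.8% held a GATA match, 8.30% held a Stat match and 0.457% held 2 or more Stat matches anywhere in the window. The Epor match is thus a common one, and 2 or more Stat matches in a window, as in Cish, are rare. How often such matches lie side by side was not counted. Cish was listed as a Stat5 target, so this contrast carries no test. Windows were found for 9 of the 10 genes, 13 windows in all, and 2 of the 13 held a GATA match (Epor and Akt1) and 2 a Stat match (Cish and Socs3, as TTCTTAGAA). None of the matches overlapped another. A match describes the letters and was not tested as a binding site, and none says anything about sites outside the window.

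Epor, the receptor gene, dipped at 3 h and recovered by 7 h. Its probe set read 582.7, 569.0 and 601.7 at 0 h, 367.9, 356.9 and 394.8 after 3 h, and 753.2, 710.5 and 590.0 after 7 h. It read 643.9, 660.2 and 577.2 after 14 h, 632.0, 722.9 and 677.5 after 21 h, and 560.9, 582.1 and 578.7 after 30 h. The 3 arrays at 3 h lay below each of the other 15, with no overlap. At 3 h the mean was 373 ± 19.5 against 584 ± 16.4 at 0 h (SD, n = 3 each), a fall of 0.67 on the log2 scale (SE 0.11, limma adjusted p = 0.00298). At 7 h it was 685 ± 84.6 against 373 ± 19.5 at 3 h, a rise of 0.90 (SE 0.11, limma adjusted p = 0.000452). The level at 7 h, 14 h, 21 h and 30 h was not called different from 0 h, with log2 changes of 0.23, 0.13, 0.22 and 0.02 and, at 30 h, a 95% interval of -0.22 to 0.25. The call at 3 h held when any 1 of the 18 arrays was left out (limma adjusted p 0.00196 to 0.0221). It was lost when the arrays were scaled to a common median in place of quantile normalization, with a change of -0.53 and an adjusted p of 0.166.

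Jak2, the kinase that sits on the receptor, passed no test. Its brighter probe set read between 53.6 and 142.7 over the 18 arrays, and its widest difference from 0 h was 0.42 at 30 h (SE 0.27, limma adjusted p = 0.294). Replicates of the same time spread widely, as at 0 h with 111.9, 103.2 and 53.6, and the arrays at every later time overlapped those at 0 h. The 95% interval at 30 h, -0.14 to 0.99, leaves room for a change of up to about 1 log2 unit in the upward direction. The second Jak2 probe set read 0.6 to 30.3, below the lowest array median of 38.2, and gave no usable level.

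The Stat5 genes, which encode near-identical transcription factors, differed from each other in what could be called. Stat5b read 130.2, 73.4 and 71.5 at 0 h, 105.8, 109.5 and 67.4 after 3 h, and 200.4, 103.9 and 134.8 after 7 h. It read 199.3, 117.9 and 107.6 after 14 h, 220.5, 187.6 and 281.4 after 21 h, and 260.0, 94.6 and 233.4 after 30 h. All 3 arrays at 21 h lay above all 3 at 0 h, whereas 1 of the 3 at 30 h lay within the 0 h range. Stat5b rose by 1.30 on the log2 scale at 21 h, 2.46 times the 0 h level (SE 0.31, limma adjusted p = 0.00461), and by 1.02 at 30 h (SE 0.31, adjusted p = 0.0196). The call at 30 h was lost when 0 h B, 0 h C, 30 h A or 30 h C was left out (adjusted p 0.0775, 0.0777, 0.113 and 0.0935), and when only the 0 h and 30 h arrays were fitted (1.01, adjusted p = 0.0586). The call at 21 h was kept in each fit that left out 1 array.

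Stat5a was bright throughout. Its representative probe set read between 232.3 and 646.0 over the 18 arrays and its F test over the 6 times, which asks whether any time differed, gave an adjusted p of 0.374. The lowest reading, 232.3, came from 14 h B, beside 514.8 and 462.4 in the other arrays of that time. A second Stat5a probe set read 159.5, 147.7 and 229.7 after 21 h against 300.2, 331.8 and 308.8 at 0 h, a change of -0.70 (SE 0.21, limma adjusted p = 0.0233). That call was lost when 0 h B, 0 h C, 21 h A or 21 h B was left out, with an adjusted p of at least 0.0539, and the brighter probe set gave -0.27 for the same comparison (adjusted p = 0.487). At 14 h against 0 h the brighter and dimmer probe sets changed by -0.58 and -0.61, without overlap of the arrays. Neither change was called (limma adjusted p = 0.102 and 0.0727), but the mean over both was (-0.59, adjusted p = 0.0373). Both Stat5a probe sets carry names with which the array's maker marks less certain designs, an incomplete set of unique probes for the brighter one and probes shared within a gene family for the dimmer one, and Stat5a and Stat5b are close copies, so how much of either signal came from which gene was not tested.

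Pim1, a serine/threonine kinase that supports cell survival and a textbook Stat5 target, dipped at 3 h and rose late. Its brighter probe set read 1765.9, 1252.5 and 1706.9 at 0 h, 665.4, 520.2 and 538.5 after 3 h, and 2144.5, 1458.0 and 1243.0 after 7 h. It read 3431.4, 2664.3 and 3017.5 after 14 h, 4024.3, 2714.2 and 4172.0 after 21 h, and 5198.2, 5114.9 and 4603.8 after 30 h. The arrays at 3 h lay below all others, those at 7 h overlapped those at 0 h, and those at 14 h, 21 h and 30 h lay above both. Pim1 fell by 1.53 at 3 h, to 0.346 of its 0 h level (SE 0.21, limma adjusted p = 0.000268), and at 7 h was 2.82 times its 3 h level (log2 SE 0.21, adjusted p = 0.000964). Against 0 h its log2 level was 0.87 higher at 14 h, 0.98 higher at 21 h and 1.5 higher at 30 h (SE 0.21 each, limma adjusted p = 0.00662, 0.0014 and 1.1e-05). The step to 14 h from 7 h was a rise of 0.90 (adjusted p = 0.0229) that lost its call without 7 h B, 7 h C, 14 h A or 14 h C, with adjusted p of 0.0549 to 0.130.

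The second Pim1 probe set, dimmer, moved in the same order. It read 250.6, 179.8 and 183.3 at 0 h, 93.7, 90.4 and 111.3 after 3 h, and 431.4, 225.4 and 171.7 after 7 h, then 653.5, 419.1 and 433.8 after 14 h, 769.8, 582.0 and 670.0 after 21 h, and 866.7, 481.1 and 768.5 after 30 h. No array at 3 h reached the lowest at 0 h, yet the change of -0.90 was not called (SE 0.27, limma adjusted p = 0.178). Its rises of 1.29 at 14 h, 1.67 at 21 h and 1.74 at 30 h, 3.35 times the 0 h level, were called (adjusted p = 0.00297, 0.000126 and 5.28e-05). Its rise of 1.25 at 7 h against 3 h (adjusted p = 0.0334) was lost in 5 of the 18 fits that left out 1 array, those that dropped any of the 3 h arrays, 7 h A or 7 h B, with changes of 0.89 to 1.34 and adjusted p of 0.0815 to 0.142. It was also lost with 64 as the constant (adjusted p = 0.0612), without the intensity trend (0.0816) and with only the compared arrays (0.124).

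**Figure D2:**
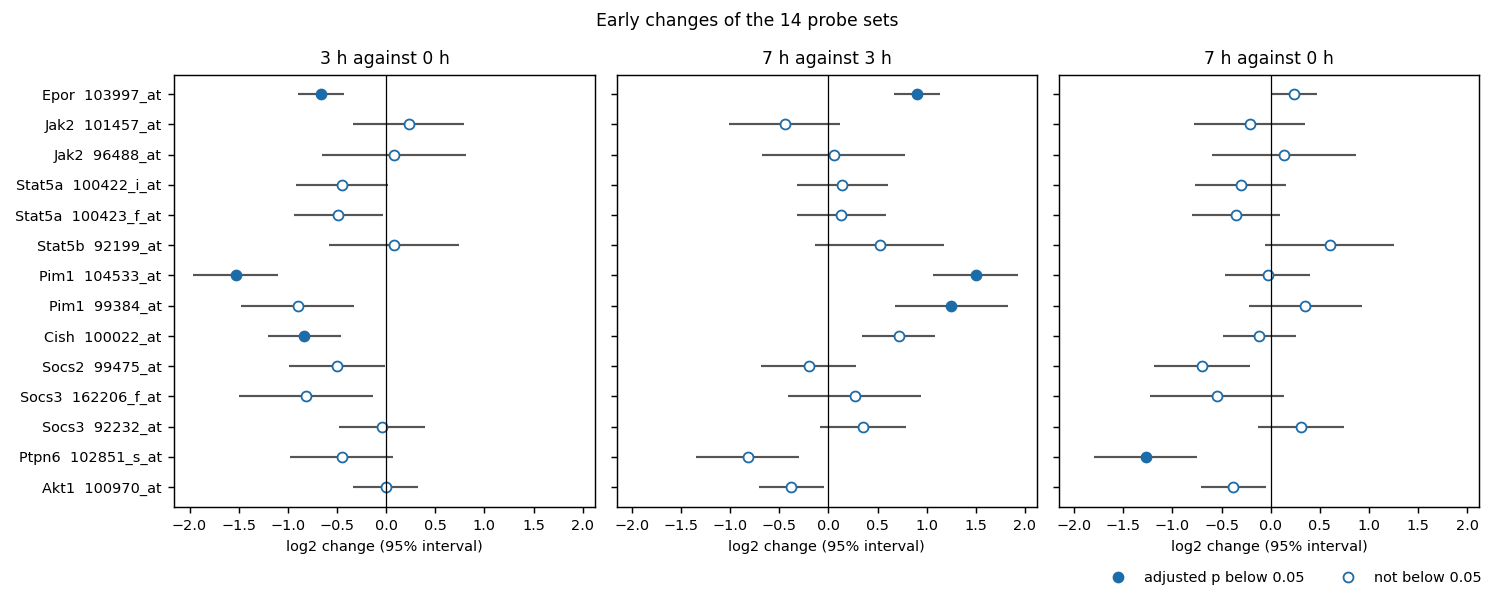
Log2 change with its 95% interval (horizontal axis) of each of the 14 member probe sets at 3 h against 0 h, 7 h against 3 h and 7 h against 0 h, with filled points for called changes and intervals not adjusted for the number of probe sets. Epor, Cish and the brighter Pim1 probe set are called lower at 3 h, Epor and both Pim1 probe sets are called higher at 7 h than at 3 h, and Ptpn6 is the 1 called change at 7 h against 0 h.

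Cish, the cytokine-inducible SH2 protein that feeds back on the receptor, was lower at 3 h and higher at 21 h and 30 h. It read 361.8, 248.8 and 261.4 at 0 h, 153.4, 155.1 and 151.0 after 3 h, and 280.8, 273.6 and 239.6 after 7 h. It read 511.4, 315.6 and 316.4 after 14 h, 514.9, 559.5 and 555.1 after 21 h, and 926.1, 726.6 and 725.7 after 30 h. The 3 arrays at 3 h were tightly grouped and below all others, and at 30 h all 3 lay above every array of an earlier time. Cish fell by 0.83 at 3 h, to 0.561 of its 0 h level (SE 0.18, limma adjusted p = 0.022), and rose by 0.92 at 21 h and 1.44 at 30 h (SE 0.18 each, adjusted p = 0.000679 and 2.9e-06). Its difference of 0.41 between 14 h and 0 h was not called (adjusted p = 0.161), and the arrays overlapped. Its difference of 0.72 between 7 h and 3 h was not called either (adjusted p = 0.0623), but it was called in 5 of the alternative fits, with adjusted p of 0.0165 to 0.0474. The call at 3 h rested on single arrays: without 0 h A the change was -0.67 and the adjusted p 0.135, and it was also lost when 3 h A, 3 h B or 3 h C was the array left out (adjusted p 0.0896, 0.0763 and 0.0768).

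At 3 h, 3 of the 14 member probe sets were called lower and none higher, beside 1.06% of all 12422 probe sets called in either direction, 0.757% higher and 0.306% lower. The median change of the 14 was -0.47, and that of all probe sets was 0.00. At 7 h against 3 h, 3 member probe sets were called higher and none lower, beside 1.06% of all probe sets called, 0.733% higher and 0.33% lower. These comparisons share the 3 h arrays, so that a low reading there enters both. The summed signal of 9 mast cell markers was 145 to 177 at 3 h against 198 to 257 at 0 h, without overlap, and 0 of the 9 were called. Its part in the dip was not tested.

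Socs2, an inhibitor of cytokine and growth hormone receptors, was lower from 14 h on, when Pim1 was higher. It read 1032.9, 850.8 and 879.6 at 0 h, 642.5, 936.5 and 484.6 after 3 h, and 686.1, 541.9 and 496.1 after 7 h. It read 363.0, 513.1 and 257.8 after 14 h, 338.1, 388.7 and 349.6 after 21 h, and 335.7, 500.0 and 355.5 after 30 h. The arrays at 3 h overlapped those at 0 h, and no array at 7 h or later reached the 0 h range. Socs2 fell by 1.31 at 14 h, 1.32 at 21 h and 1.17 at 30 h (SE 0.23 each, limma adjusted p = 0.000571, 0.000252 and 0.000605), to 0.445 of its 0 h level at 30 h. The changes of -0.50 at 3 h and -0.70 at 7 h were not called (adjusted p = 0.585 and 0.116). Socs3, the inhibitor that binds Jak2 and cytokine receptors directly, was near background. Its brighter probe set, of a kind that can share probes, read 5.5 to 63.4, and its other probe set 3.9 to 20.2. At 3 h the brighter one read 7.9, 6.1 and 12.2 against 40.3, 24.4 and 26.6 at 0 h, without overlap, but the change of -0.82 was not called (SE 0.32, adjusted p = 0.447).

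Ptpn6, the Shp-1 phosphatase that switches off Jak2 at the receptor, declined through the course. Its probe set, of a kind that can share probes between transcripts, read 167.9, 184.5 and 232.7 at 0 h, 109.5, 140.2 and 156.3 after 3 h, and 59.8, 74 and 75 after 7 h. It read 37.9, 45.5 and 47.5 after 14 h, 25.8, 29.8 and 22.5 after 21 h, and 25.0, 7.4 and 8.7 after 30 h. Each time up to 21 h lay below the one before it without overlap, and 30 h overlapped 21 h. Ptpn6 fell, with log2 changes against 0 h of -1.27, -1.8, -2.27 and -2.84 in the 4 times from 7 h on (SE 0.25 each, limma adjusted p = 0.00449, 4.35e-05, 1.21e-06 and 3.72e-08). Its change at 3 h of -0.45 was not called (adjusted p = 0.718). At 21 h and 30 h the signal was below every array median, so the size of the fall depended on the constant: with 64 in place of 16 it was -1.71 at 30 h. At 7 h it was the 1 member probe set called against 0 h, and it was lower, beside 4.17% of all probe sets called, 2.48% higher and 1.69% lower.

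Akt1, a kinase of the survival branch, was not called different at 3 h and fell later. It read 713.0, 662.0 and 880.5 at 0 h, 708.8, 714.3 and 818.9 after 3 h, and 599.4, 611.1 and 494.1 after 7 h. It read 370.3, 303.4 and 369.0 after 14 h, 263.8, 178.4 and 235.6 after 21 h, and 291.5, 266.0 and 225.7 after 30 h. The 3 h arrays overlapped those at 0 h, the 7 h arrays lay below the 0 h range, and from 14 h on every array read 370.3 or less. Akt1 fell by 1.06 at 14 h, 1.60 at 21 h and 1.41 at 30 h (SE 0.16 each, limma adjusted p = 9.41e-05, 2.92e-07 and 8.78e-07), while its change of -0.38 at 7 h was not called (adjusted p = 0.256). The step to 14 h from 7 h, a fall of 0.68 (adjusted p = 0.0254), was lost without 7 h A, 7 h B, 14 h A or 14 h B, with adjusted p of 0.0538 to 0.110.

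**Figure D3:**
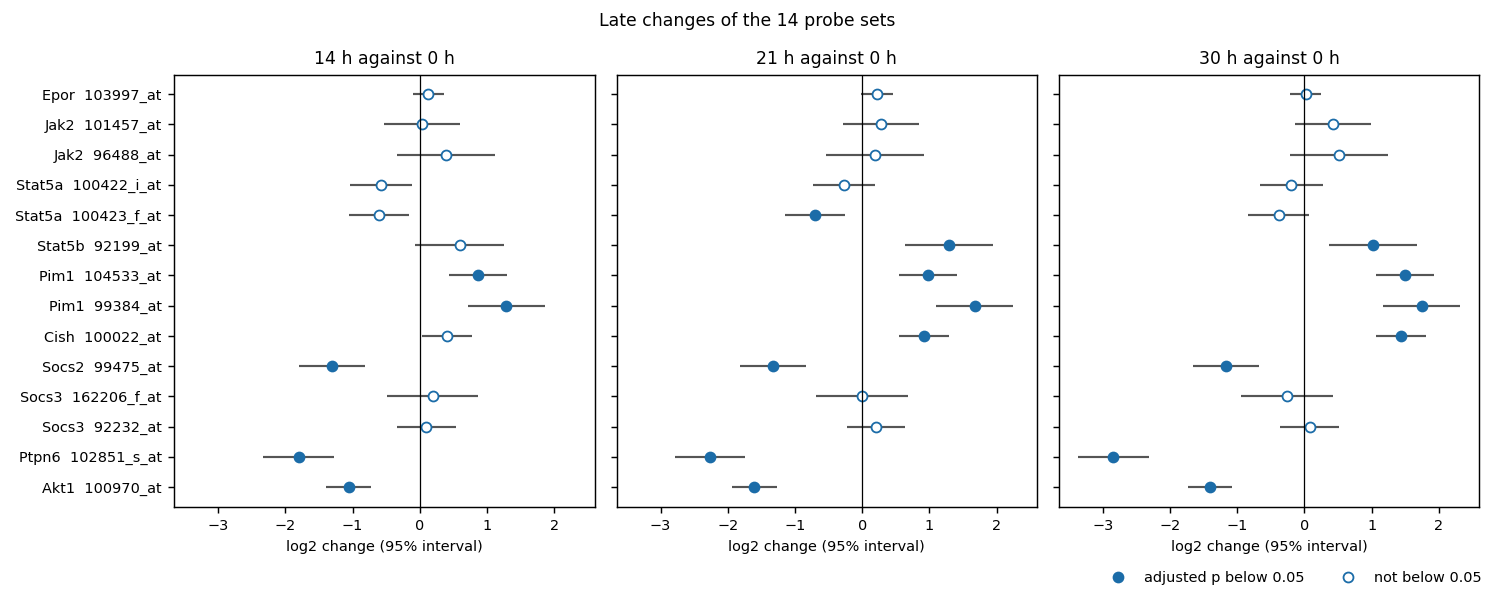
Log2 change with its 95% interval (horizontal axis) of each of the 14 member probe sets at 14 h, 21 h and 30 h against 0 h, with filled points for called changes. Both Pim1 probe sets lie to the right of 0 and Socs2, Ptpn6 and Akt1 to the left at all 3 times, with Ptpn6 reaching -2.84 at 30 h, and the intervals of Epor include 0.

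Counted over the members, 2 probe sets were called higher and 3 lower at 14 h, beside 13.3% of all probe sets called, 6.55% higher and 6.77% lower. At 21 h 4 were higher and 4 lower, beside 20.7% (9.75% higher and 10.9% lower). At 30 h 4 were higher and 3 lower, beside 26.7% (12.8% higher and 13.8% lower). By gene, Pim1, Cish and Stat5b were higher and Socs2, Ptpn6 and Akt1 lower at 30 h, 6 of 10 in all. The median log2 change over the 14 probe sets at 30 h was 0.05, as it was over all probe sets. Between neighbouring late times few steps passed: 2 of 14 at 14 h against 7 h (beside 2.33%, with 1.26% higher and 1.07% lower), which were the Pim1 and Akt1 steps given above. At 21 h against 14 h, where 2.32% of all probe sets were called (0.942% higher and 1.38% lower), limma called 0 members. It also called 0 at 30 h against 21 h, where 4.98% of all were called (1.87% higher and 3.12% lower). At 21 h against 14 h and at 30 h against 21 h, 3 member probe sets each had an unadjusted limma p below 0.05. The shares of all probe sets were 13.7% and 16.4%. The F test called 8 of the 14 probe sets, 57.1%, against 27.2% of all, and these stood for Epor, Stat5b, Pim1, Cish, Socs2, Ptpn6 and Akt1. The 2 shares are of unlike sets: most member probe sets were brighter than the median probe set, while the share of all also covers dim ones. The members were also not chosen blind to these data. Both limits hold for every member count, those at 3 h and 7 h included, and no excess was tested. The exact permutation test of 3 arrays against 3 cannot give a p below 0.1, so the calls rest on the model's pooled spread.

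The members that moved together could be seen across the 18 arrays, on the normalized log2 scale. Pearson's r was 0.95 between the 2 Pim1 probe sets, 0.93 between Pim1 and Cish, 0.90 between Ptpn6 and Akt1, 0.75 between Epor and Pim1, and -0.80 between Pim1 and Ptpn6. All of these points share 6 times and 18 arrays, so the values describe courses and carry no test. Among 3047 other probe sets called in the F test, the 3 most like Epor were Cdc42se1 (r = 0.82), Rnf5 (0.80) and Kcnn4 (0.78), which had 3 h changes of -0.70, -0.71 and -0.59. Those most like Pim1 were Zfp36, an RNA-binding protein gene (0.91), Atp6v0b, a proton pump subunit gene (0.91), and Ube2h, a ubiquitin-conjugating enzyme gene (0.90). Cish was closest to Sesn1 (0.97), Atp6v0b (0.96) and Rit1 (0.96), and thus shared Atp6v0b with Pim1. Akt1 was closest to Myb (0.97), the progenitor transcription factor gene, Ppp2r1a (0.96) and Ergic1 (0.96). Ptpn6 was closest to Gpn1 (0.98), Dnajc2 (0.97) and Nsun2 (0.97), Socs2 to Brd2, Ugcg and Cers2 (0.89 each), and Stat5b to Cyth3 (0.90), Usp19 (0.89) and Gnb1 (0.88). They were picked as the highest r among many probe sets that change over the same times, and nothing is said of shared function or control.

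The wider pathway was described with 81 other listed genes, of which 58 were measured by a probe set of their own. At 30 h, 15 of the 58 were higher and 11 lower, 44.8% called beside 26.7% of all probe sets, with a median of 0.31 against 0.05. These sets are unlike: each listed gene counts once, by its brightest probe set. The share of all probe sets also covers dim ones, further ones of the same gene and ones without a symbol. This holds for the shares of the gene groups below too. At 3 h only Csf2rb of the 58 was called.

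The receptor group held 9 measured genes: receptors, kinases at the receptor and the ligand genes Epo and Kitl. Of these 9, 3 were higher and 3 lower at 30 h, 66.7% called beside 26.7% of all probe sets. Epo and Kitl were not called (limma adjusted p = 0.951 and 0.418). Csf2rb, the beta chain shared by interleukin receptors that can pair with Epor, rose by 6.66 at 30 h (SE 0.32, limma adjusted p = 1.3e-11), with 6094.7, 4061.5 and 4783.2 at 30 h against 55.2, 18 and 23.1 at 0 h. It was already 3.50 higher at 3 h, at 627.7, 496.2 and 420.2. Its 0 h readings, like the 30 h readings of Kit and Myc, were near or below the array medians, so these log2 sizes depend on the constant of 16 and are not ranked. Kit, the stem cell factor receptor that works beside Epor in progenitors, fell by 3.55 (SE 0.36, adjusted p = 2.41e-07), with 47.6, 25.2 and 6.3 at 30 h against 377.1, 486.1 and 478.1 at 0 h. Jak1, a relative of Jak2, rose by 1.19 (SE 0.16, adjusted p = 7.73e-06), with 681.7, 736.3 and 849.2 at 30 h against 387.4, 316.9 and 282.1 at 0 h. Btk, a cytoplasmic kinase, fell by 0.95 (SE 0.17, adjusted p = 0.000278), while its second probe set, which was dim, gave -0.28 and was not called (adjusted p = 0.406).

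Of 20 adaptors and downstream kinases, 7 were higher and 2 lower at 30 h, 45% called beside 26.7% of all probe sets, with a median of 0.60. Akt2, the sister gene of Akt1, rose by 0.76 (SE 0.14, limma adjusted p = 0.000325), with 877.6, 1034.4 and 885.4 at 30 h against 465.9, 579.9 and 571.0 at 0 h, while Akt1 fell over the same 30 h. Foxo3, the transcription factor that Akt keeps out of the nucleus, rose by 1.16 (SE 0.21, adjusted p = 0.00022), with 1014.4, 954.3 and 999.6 at 30 h against 387.5, 414.8 and 480.4 at 0 h. Pdpk1, the kinase that activates Akt, rose by 1.12 (SE 0.17, adjusted p = 3.03e-05), and its second probe set by 1.35 (adjusted p = 0.00176). Map2k2, a kinase of the MAP kinase branch, rose by 1.09 (SE 0.15, adjusted p = 1.7e-05). In both Akt genes, Foxo3 and Jak1 the 30 h arrays did not overlap the 0 h arrays.

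Of 10 phosphatases and inhibitors, 2 were higher and 0 lower at 30 h, 20% called and thus no more than the 26.7% of all probe sets. Socs1, a Jak inhibitor, read 90.6, 74.8 and 83.2 at 0 h, 10.9, 46.4 and 43.3 after 3 h and 181.7, 198.1 and 177.6 after 30 h. Its low readings at 3 h did not overlap 0 h but were not called (-0.99, limma adjusted p = 0.244), and its rise of 1.12 at 30 h was (SE 0.33, adjusted p = 0.014). Inpp5d, the inositol phosphatase that docks on activated receptors, rose by 0.75 (SE 0.21, adjusted p = 0.00954), although its second probe set gave 0.01. Ptpn1 and Ptpn2, phosphatases that act on Jak kinases, had changes of -0.56 and -0.51 at 30 h that were not called (adjusted p = 0.0641 and 0.171), and Ptpn1 had fallen by 0.85 at 21 h (adjusted p = 0.00742). Ptpn11 read 1.5 to 19.6 on all arrays, at background, so the data give no level for it. Of the 3 other Stat genes measured, 0 were called at 30 h, with changes of 0.63 for Stat3 (adjusted p = 0.0523), -0.60 for Stat6 (0.0564) and 0.53 for Stat4 (0.257). Stat6 had fallen by 1.07 at 14 h (adjusted p = 0.00262), and the second Stat3 probe set rose by 0.71 at 30 h (adjusted p = 0.00239).

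Of 16 genes known as Stat5 or erythropoietin targets, 3 were higher and 6 lower at 30 h, 56.2% called beside 26.7% of all probe sets (12.8% higher and 13.8% lower). The share higher was near that of all and the share lower was above it, and neither difference was tested. Bcl2l1, which encodes the survival protein Bcl-xL, rose by 2.20 (SE 0.19, limma adjusted p = 2.47e-08), with 1129.9, 1515.0 and 1468.7 at 30 h against 293.6, 275.0 and 246.1 at 0 h. Its change at 3 h was -0.20 and not called (adjusted p = 0.923), unlike those of Pim1 and Cish at that time, though the difference between the genes was not tested, and its second probe set was near background. Ccnd3, the D cyclin of red cell precursors, rose by 1.12 (SE 0.17, adjusted p = 4.75e-05). Myc fell by 3.36 (SE 0.27, adjusted p = 1.05e-08), with 11.9, 12.9 and 4.3 at 30 h against 250.6, 252.3 and 248.0 at 0 h. Gfi1b, a repressor gene needed for red cells, rose by 1.32 at 7 h (SE 0.16, adjusted p = 3.19e-05) and at 30 h differed from 0 h by 0.19 (adjusted p = 0.466).

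The arrays as a whole were alike in scale and none duplicated another: Pearson's r between arrays of the same time was 0.954 to 0.974. The cells carried markers of the labelled cell type: 6 of 8 listed red cell precursor markers were measured, all 6 were called higher at 30 h, and their summed signal was 55092 to 65781 at 30 h against 9286 to 11109 at 0 h. The sums for other cell types are set between times within a list and not between lists, since probe sets and list sizes differ. At 30 h against 0 h they were 219 to 245 against 198 to 257 for 9 mast cell markers (1 called higher and 2 lower), 72.6 to 79.8 against 67.3 to 71.5 for 4 megakaryocyte markers (0 called), and 444 to 606 against 304 to 339 for 10 neutrophil and macrophage markers (1 called higher). The same sums were 204 to 290 against 231 to 275 for 7 lymphocyte markers and 673 to 934 against 540 to 649 for 5 fibroblast markers, with 0 called in either list. The megakaryocyte sum overlapped that of 0 h at 3 h (50.4 to 73.1) and was higher without overlap at 7 h, 14 h and 21 h. It was 75.6 to 116.6 at 7 h, 119.5 to 202.6 at 14 h and 115.8 to 157.9 at 21 h. The part of these cell types in the changes of Pim1, Cish, Socs2, Ptpn6 and Akt1 was not tested.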

How the data were processed

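Each of the 18 MG-U74Av2 arrays came as 1 deposited intensity (signal) per probe set, with 0 columns left unused. The software that made these intensities, its scaling target and its detection calls are not given in the sources used here. Per the labels, A, B and C are biological replicates. The platform annotation gave 1 symbol to 10833 of 12422 probe sets, several to 396 and none to 1193, and 66 control probe sets were left out. Intensities were converted from the deposited values to log2(signal + 16), quantile normalized and fitted with limma 3.58.1 in R 4.3.3 (lmFit and eBayes with an intensity trend, 12 residual degrees of freedom). P-values were adjusted by Benjamini-Hochberg over all 12422, and the fit was tested on simulated data. The members, lists and naming rules were chosen with earlier results of these data known. Where a gene had several probe sets, the brightest on average stood for it. From each pathway sublist the 4 genes with the smallest F test p were named, with Kit, Lyn, Ptpn11, Stat3 and Bcl2l1 where measured. For each member called in the F test, the 3 most correlated probe sets were named. Start regions came from RefSeq (GRCm38.p6) and none was found for Socs2. Alternatives covered normalization, the added constant (1 or 64), a filter on dim probe sets, the variance model, array weights, a replicate block, the arrays fitted, each array left out, and the mean over a gene's probe sets.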

Additional observations from a re-analysis of the deposited data

How the results depend on the processing

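Of 29 called member changes, 21 kept direction and call under all settings of the analysis and 20 of those also with each array left out in turn. Of 789 recomputed values of called changes, 751 kept the call, 38 lost it and 0 reversed. Of 2631 recomputed values of uncalled changes, 18 became called. Among these was Stat5a at 14 h against 0 h. Its dimmer probe set was called without normalization between arrays (limma adjusted p = 0.0494), with median scaling (0.0371) and with array weights (0.0411). Both Stat5a probe sets were called without 14 h A (0.0263 for the brighter and 0.0161 for the dimmer). Counts of called members at 3 h, 14 h, 21 h and 30 h against 0 h, in the F test and in the pathway list stayed within 1.5 times of those reported. At 7 h against 0 h the count was 1 and became 2 with a replicate block, which added Socs2 (-0.70, limma adjusted p = 0.0422). The replicate block also called the dimmer Pim1 probe set at 3 h against 0 h (0.0368) and 14 h against 7 h (0.0182) and Cish at 7 h against 3 h (0.0264). Whether the letters pair the arrays was not settled, and the main fit had no replicate block. Deviations of arrays with the same letter correlated between -0.09 and 0.20, and 3 of 45 pairs were above 0.1. Yet 13 of 18 arrays had their highest mean correlation with arrays of their own letter, so a weak pairing by letter may be present. At 7 h against 3 h the count of 3 became 0 when only the arrays of the compared times were fitted, with Epor and the brighter Pim1 probe set at an adjusted p of 0.0515. At 14 h against 7 h the count of 2 became 0 without the intensity trend and 0 with only the compared arrays, and lay between 0 and 2 with 1 array left out. At 21 h against 14 h it was 0, and became 1 without normalization between arrays (Akt1, -0.60, limma adjusted p = 0.0472) and 0 to 1 with 1 array left out. At 30 h against 21 h it was 0, and 0 to 1 with 1 array left out. In both of these late comparisons the gain with an array left out came without 14 h A and was Cish. The call for Cish at 3 h was lost without the trend (adjusted p = 0.0568) and with only the compared arrays (0.0606). Cish at 7 h against 3 h became called when the dimmest probe sets were left out (0.0474), with array weights (0.0255), and without 0 h A (0.0443) or 14 h A (0.0165). The causes were not tested. With 3 arrays per time and no detection calls, signals near or under the array medians (Socs3, the dim Jak2 probe set, late Ptpn6, Csf2rb at 0 h, late Kit and Myc) limit what can be seen.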
